A study of Mus musculus with 6 samples.

Results

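The CC chemokines of mouse chromosome 11 are a family of small secreted proteins, and 10 of its genes were followed here, out of 56691 genes in the deposited table. They are Ccl2, Ccl7, Ccl11, Ccl12 and Ccl8 in a first interval and Ccl5, Ccl9, Ccl6, Ccl3 and Ccl4 in a second. The members were chosen by gene symbol and chromosome, with the counts and FPKM values of the 2 groups, and hence the difference between them, already known. Their differences between the groups are therefore given as a description, without p-values, and the count of members past the threshold supports nothing. Each symbol matched 1 row of the table, and all 10 rows lay on chromosome 11.

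RNA was sequenced from wild-type mouse bone marrow stromal cells (BMSCs), which stick to the dish and can be grown into osteoblasts and which the labels call mesenchymal stem cells. In both groups the cells were kept for 7 days in osteoblast medium, α-MEM with 10% FBS, penicillin and streptomycin (1%), 50 µg/ml ascorbic acid and 1.08 mg/ml beta-glycerophosphate, which was renewed every 2 days. In 3 samples this medium came with conditioned medium from Hepa 1-6 cells, a mouse hepatoma line, and in the other 3 with control medium. The strain, sex and age of the mice, the share of conditioned medium, what the control medium had been exposed to, and the origin of the replicates (separate mice, separate cultures or neither) are not given in the sources used here. The p-values therefore measure only how far these samples spread, which may be technical.

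Chemokines are ligands that guide leukocytes along a gradient by way of G protein-coupled receptors on their surface. CC chemokines carry a pair of adjacent cysteines near the start of the mature protein, which gives the class its name. Ccl2, Ccl7 and Ccl12 are ligands of Ccr2 and draw monocytes, Ccl8 of the mouse is a ligand of Ccr8, and Ccl11 (eotaxin) is a ligand of Ccr3 on eosinophils. Ccl3 and Ccl4 are known as macrophage inflammatory proteins and Ccl5 as RANTES, and Ccl3, Ccl5, Ccl6 and Ccl9 act through Ccr1. In bone, such ligands bring in monocytes and osteoclast precursors and are made by stromal cells, osteoblasts and macrophages alike.

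The codons of the adjacent cysteines, which define the family, are shown in capitals within 45 bases of coding sequence, read 5′ to 3′ on the sense strand from the GENCODE M21 transcripts (GRCm38). They lay in exon 2 of 8 members and in exon 3 of Ccl6 and Ccl9.
Ccl2 (chr11:82036491-82036535, plus strand): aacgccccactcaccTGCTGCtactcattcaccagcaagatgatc
Ccl7 (chr11:82046523-82046567, plus strand): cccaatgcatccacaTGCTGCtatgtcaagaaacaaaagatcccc
Ccl12 (chr11:82102619-82102663, plus strand): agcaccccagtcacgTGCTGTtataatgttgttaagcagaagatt
Ccl8 (chr11:82116041-82116085, plus strand): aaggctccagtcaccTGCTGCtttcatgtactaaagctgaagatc
Ccl11 (chr11:82061681-82061725, plus strand): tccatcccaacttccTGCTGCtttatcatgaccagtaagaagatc
Ccl3 (chr11:83648628-83648672, minus strand): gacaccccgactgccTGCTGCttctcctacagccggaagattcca
Ccl4 (chr11:83663467-83663511, plus strand): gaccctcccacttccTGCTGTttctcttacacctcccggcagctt
Ccl5 (chr11:83529218-83529262, minus strand): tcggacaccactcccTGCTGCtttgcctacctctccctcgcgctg
Ccl6 (chr11:83589362-83589406, minus strand): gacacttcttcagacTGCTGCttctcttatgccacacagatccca
Ccl9 (chr11:83575902-83575946, minus strand): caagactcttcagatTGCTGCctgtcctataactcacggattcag

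In 8 members the cysteine pair was written as TGCTGC, and in Ccl12 and Ccl4 as TGCTGT. Counted from the start codon, the first of these codons was number 32 to 34 in the 8 members with the pair in exon 2. It was number 50 in Ccl6 and number 57 in Ccl9, which have 4 exons and a longer stretch before the pair. Over the 45 pairs of members, identical bases made up 39.4% to 68.1% of the length of the coding alignment, gaps included. By this measure Ccl3 and Ccl4 were highest at 68.1%, with Ccl7 and Ccl11 at 66.3% and Ccl6 and Ccl9 at 64.6%. Gaps lower the value where coding lengths differ, as in pairs with Ccl2, whose coding sequence had 444 bases. The longest run of identical bases shared by any pair of these transcripts was 25 bases, in Ccl6 and Ccl9, and the reads were 150 bases long.

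The first interval, from Ccl2 to Ccl8, spanned 81.2 kb at chr11:81926397-82007625 (GRCm39), and all its members lie on the plus strand. The second, from Ccl5 to Ccl4, began 1409 kb further on and spanned 139 kb at chr11:83416604-83555509, with Ccl4 on the plus strand and its other 4 members on the minus strand. Each library held 18661629 to 21329475 counts over genes. No pair of replicates agreed within counting noise (chi-square over its degrees of freedom 2.44 or more), so every library stood as 1 sample. A gene was tested with edgeR's quasi-likelihood test when its mean over the 6 libraries reached 1 FPKM, the read count scaled to exonic length and library total, which left 12153 genes. It was called at an adjusted p under 0.05. Log2 fold changes give conditioned over control medium, ± SE, and levels are means ± SD (n = 3 per group).

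The CC chemokine transcripts of chromosome 11 were far more abundant in conditioned medium. Together the 10 genes took 0.0616% to 0.0666% of the counts of a control medium library and 0.574% to 0.586% of those of a conditioned medium library, a ratio of the means of 9.04. Their summed level was 408 ± 14.7 FPKM in control against 3850 ± 34.9 FPKM in conditioned medium. The first interval took 41.7% ± 1.56 of this sum in control medium and 38.6% ± 0.624 in conditioned medium, and the sums of the first and second interval were 8.73 and 9.93 times higher. In bulk RNA, more cells that make a transcript and more of it per cell cannot be told apart.

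Of the 10 members, 9 passed the expression filter, and Ccl11 did not. Ccl5 and Ccl8 passed only through their level in conditioned medium, since both lay below 1 FPKM in control medium. All 9 were called higher, where 23.0% of all tested genes were called higher, 22.9% lower and 45.9% in either direction. In the same 9 members every conditioned medium library lay above every control medium library, as in 24.7% of tested genes. The members' choice rested on this contrast, so nothing is read from these counts. The median log2 fold change was 3.32 over the 9 members and -0.003 over all tested genes.

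**Figure D1:**
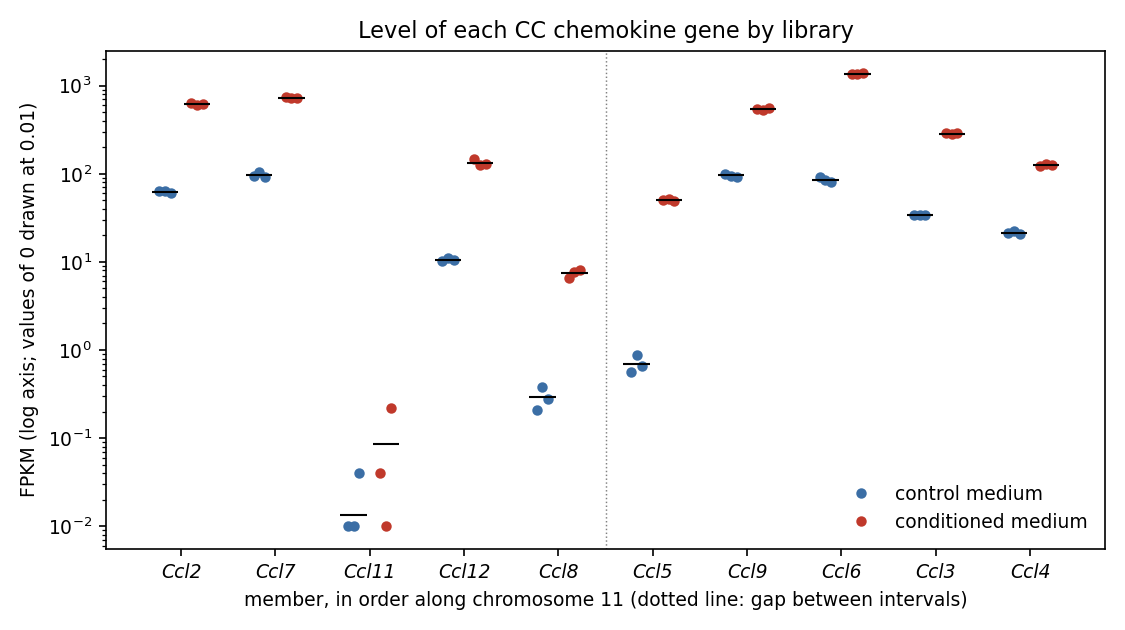
FPKM of each member (log axis, values of 0 drawn at 0.01) in the 3 control medium (blue) and 3 conditioned medium (red) libraries, with the mean of each group as a line and the members in their order along the chromosome. The groups are apart in 9 members and overlap in Ccl11.

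Among the Ccr2 ligands, Ccl2 (monocyte chemoattractant protein 1, ENSMUSG00000035385, chr11:81926397-81928279) was at 64.0, 64.3 and 59.7 FPKM in control medium replicates 1 to 3 and at 634, 600.3 and 619 FPKM in conditioned medium. The libraries of each group lay close together and the groups were far apart, with a log2 fold change of 3.32 ± 0.047, or 9.97-fold. Ccl7 (monocyte chemoattractant protein 3, ENSMUSG00000035373, chr11:81936538-81938351) was at 93.3, 105 and 91.9 FPKM in control and at 735, 727 and 721 FPKM in conditioned medium. Its log2 fold change of 2.92 ± 0.051 was a 7.59-fold higher level. Ccl12 (monocyte chemoattractant protein 5, ENSMUSG00000035352, chr11:81992671-81994226) was at 10.28, 10.99 and 10.38 FPKM in control and at 146, 127 and 128 FPKM in conditioned medium. Conditioned medium replicate 1 was the highest of the 6 libraries, and the groups did not overlap (3.68 ± 0.083, 12.8-fold). Ccl2 stood at 0.648 times the FPKM of Ccl7 in control medium and at 0.849 times in conditioned medium, and these ratios did not overlap between the groups (0.610 to 0.686 against 0.826 to 0.862).

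The other members of the first interval were scarce. Ccl8 (monocyte chemoattractant protein 2, ENSMUSG00000009185, chr11:82006011-82007625) had 2, 4 and 3 counts in the control medium libraries and 70, 75 and 88 counts in conditioned medium, or 0.290 ± 0.0854 against 7.45 ± 0.774 FPKM. Its log2 fold change of 4.62 ± 0.34 rested on 9 control counts, and the ratio of summed counts was 25.3, with an exact 95% counting interval of 13.1 to 56.0. Ccl11 (ENSMUSG00000020676, chr11:81948649-81953781) had 1 count over the control medium libraries and 6 over the conditioned medium libraries, 5 of them in replicate 3. The ratio of 5.86 had an interval of 0.711 to 270.0, so a difference in Ccl11 was not detectable at this depth. Intervals and floors on counts cover counting error only. Ccl1, the further CC chemokine gene near this interval, had 2 counts in all, both in conditioned medium replicate 3.

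Ccl3, Ccl4 and Ccl5 of the second interval were higher by unequal factors. Ccl3 (macrophage inflammatory protein 1 alpha, ENSMUSG00000000982, chr11:83538670-83540181) was at 33.9, 33.7 and 33.9 FPKM in control and at 288, 279 and 290.0 FPKM in conditioned medium (3.09 ± 0.049, 8.53-fold). Ccl4 (macrophage inflammatory protein 1 beta, ENSMUSG00000018930, chr11:83553410-83555509) was at 21.5, 22.1 and 20.8 FPKM in control and at 124, 128 and 125 FPKM in conditioned medium (2.56 ± 0.060, 5.91-fold). The ratio of Ccl3 to Ccl4 was 1.52 to 1.63 in the control libraries against 2.18 to 2.33 in the conditioned medium libraries, so this neighbouring pair did not keep its balance. Ccl5 (ENSMUSG00000035042, chr11:83416604-83421344), which activated T cells, macrophages and stromal cells secrete, had the largest log2 fold change of the 9 tested members, 6.17 ± 0.12. It was at 0.56, 0.87 and 0.65 FPKM in control and at 50.4, 51.4 and 48.5 FPKM in conditioned medium. Its control level rested on 40 counts, and the ratio of summed counts was 71.9 (95% counting interval 52.6 to 101).

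Ccl6 and Ccl9, Ccr1 ligands with a longer stretch before the cysteine pair, parted company. Ccl6 (ENSMUSG00000018927, chr11:83478708-83483913) was at 92.1, 84.3 and 80.6 FPKM in control and at 1343, 1359 and 1378 FPKM in conditioned medium, a log2 fold change of 4.00 ± 0.048 and a 16.1-fold difference. It had the highest level of all members in conditioned medium, with 46542 to 52746 counts in a library. Ccl9 (ENSMUSG00000019122, chr11:83463745-83469462), known in the mouse as an osteoclast chemokine, was at 101, 95.3 and 93.0 FPKM in control and at 546, 531 and 553 FPKM in conditioned medium. Its 5.71-fold difference was the smallest of the 9 tested members (2.51 ± 0.042). In control medium the FPKM of Ccl6 was 0.867 to 0.915 times that of Ccl9, and in conditioned medium 2.46 to 2.56 times, so the balance of this adjacent pair differed between the groups. Which of them was higher in control medium depends on the length used: by the length of the main GENCODE M21 transcript Ccl6 averaged 107 and Ccl9 97.5, with overlapping ranges.

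**Figure D2:**
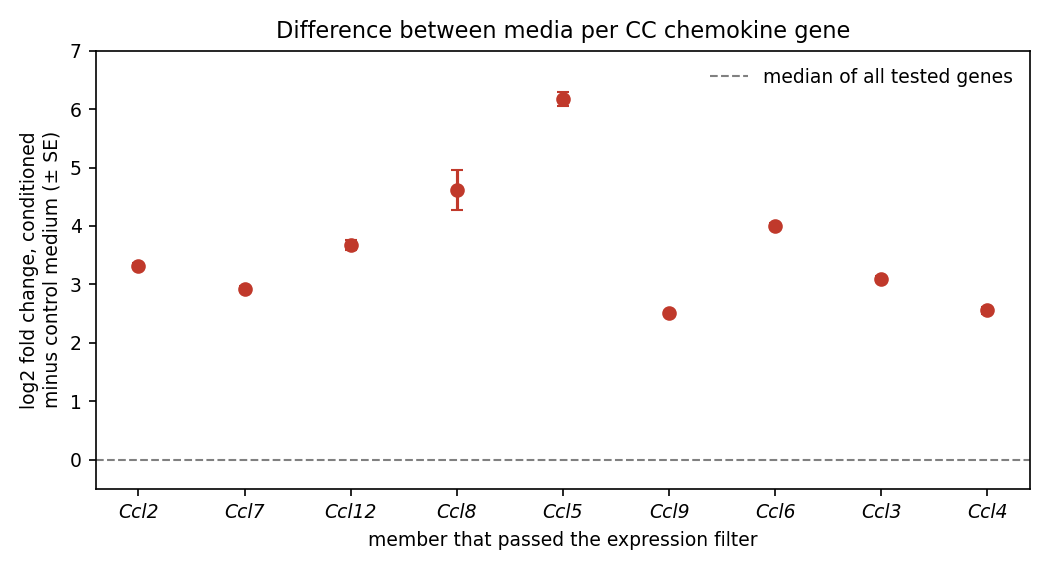
Log2 fold change (conditioned minus control medium, error bars SE) of the 9 members that passed the expression filter, in their order along the chromosome, with the median of all tested genes as a dashed line. Values run from 2.51 in Ccl9 to 6.17 in Ccl5, and the error bar is widest in Ccl8, which had 9 control counts.

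In control medium the levels ran from Ccl7 (96.9 ± 7.45 FPKM) and Ccl9 (96.3 ± 3.92) through Ccl6 (85.7 ± 5.87), Ccl2 (62.7 ± 2.56), Ccl3 (33.8 ± 0.117), Ccl4 (21.5 ± 0.656) and Ccl12 (10.5 ± 0.384) down to Ccl5, Ccl8 and Ccl11. The ranges of Ccl7 and Ccl9 overlapped, and no other neighbours in this order did. In conditioned medium Ccl6 (1360 ± 17.4 FPKM) came first, before Ccl7 (728 ± 7.23), Ccl2 (618 ± 16.7), Ccl9 (544 ± 11.1), Ccl3 (285 ± 5.62), Ccl12 (134 ± 10.5), Ccl4 (126 ± 2.35), Ccl5 (50.1 ± 1.47), Ccl8 and Ccl11. Here Ccl12 and Ccl4 overlapped and the other neighbours did not. The order depends on the length used for FPKM. The table's exonic lengths of Ccl2, Ccl5 and Ccl6 were 1.40, 1.80 and 1.25 times those of their main GENCODE M21 transcripts, and by transcript length the mean of Ccl2 in conditioned medium was 865, above the 728 of Ccl7. In control medium it put Ccl6 first at 107, with a range of 101 to 115 that overlapped those of Ccl7 and Ccl9. The fold of a gene between the groups is not touched by its length.

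The make-up of the family differed between the media. Ccl6 held 21.0% ± 1.00 of the members' summed FPKM in control medium and 35.3% ± 0.551 in conditioned medium, while Ccl9 held 23.6% ± 0.721 and 14.1% ± 0.200. Ccl7 went from 23.7% ± 1.46 to 18.9% ± 0.265 and Ccl4 from 5.26% ± 0.0814 to 3.26% ± 0.0889, although both were higher in FPKM. Ccl2 stayed near the same share, with 15.4% ± 0.0577 in control medium and 16.1% ± 0.306 in conditioned medium, and Ccl5 went from 0.169% ± 0.0371 to 1.30% ± 0.05.

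**Figure D3:**
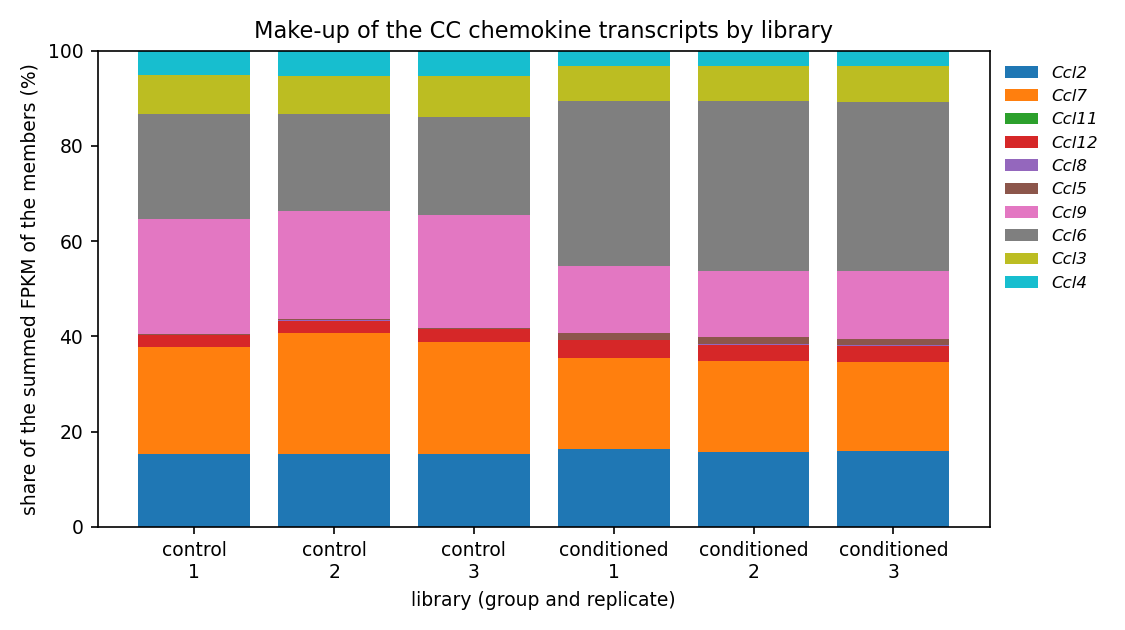
Share of each member in the summed FPKM of the 10 members, as stacked bars for each of the 6 libraries. The grey share of Ccl6 averages 21.0% in control medium and 35.3% in conditioned medium, and the pink share of Ccl9 23.6% and 14.1%.

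Markers of other cells were read beside these levels. Their counts of calls stand beside the 23.0% of all tested genes called higher and the 22.9% called lower. All 10 macrophage markers passed the filter, 4 called higher and 6 lower, and their summed level was 7670 to 8880 FPKM in control against 5680 to 6350 FPKM in conditioned medium. Csf1r, the receptor that defines the lineage, was at 130 ± 1.34 and 50.4 ± 1.95 FPKM, and Adgre1 (F4/80) at 457 ± 21.4 and 585 ± 6.25 FPKM. Within the list Itgam (CD11b) at 37.6 ± 1.17 and 129 ± 4.57 FPKM and Fcgr1 (CD64) at 44.2 ± 0.678 and 96.2 ± 1.68 FPKM were also called higher, while the sum follows Lyz2, at 6680 ± 592 and 4570 ± 355 FPKM. Macrophage transcripts were thus plentiful in cultures labelled as mesenchymal, and they moved both ways between the groups. Of 8 neutrophil markers 3 were tested, 2 higher and 1 lower, while the defining Ly6g had 1 count in all. The list summed to 5.67 to 8.85 FPKM in control against 25.4 to 29.4 FPKM in conditioned medium. Most of the sum in conditioned medium was S100a8, at 3.71 ± 0.936 and 24.5 ± 1.84 FPKM. Camp, the other higher one, was at 0.283 ± 0.129 and 1.88 ± 0.0404 FPKM and passed the filter only through conditioned medium. S100a9 was lower, at 1.95 ± 0.275 and 0.867 ± 0.458 FPKM. Of 5 mast cell and basophil markers 1 passed, Mcpt8, which was higher, and the sum was 1.57 to 1.79 against 17.5 to 20.3 FPKM, with Prss34 at 0. These lists' part in the chemokine levels was not tested.

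Stromal markers were present in both groups, with Col1a1 at 793 ± 39.8 and 641 ± 29.4 FPKM and a list sum of 1310 to 1420 FPKM in control against 1080 to 1160 FPKM in conditioned medium (2 of 5 tested higher, 3 lower). The sum is mostly Col1a1 and Col1a2. The higher pair was Dcn (decorin), at 0.523 ± 0.0611 and 2.16 ± 0.239 FPKM, and Pdgfra, at 4.00 ± 0.296 and 9.38 ± 0.535 FPKM. Dcn passed the filter only through conditioned medium, so it could be tested only because it differed. All 5 tested osteoblast markers of 6 were called lower, where 22.9% of all tested genes were. Their log2 fold changes ran from -0.15 ± 0.052 in Alpl to -3.33 ± 0.15 in Ibsp. The list summed to 64.2 to 73.8 FPKM in control against 36.5 to 41.5 FPKM in conditioned medium. The osteocalcin gene Bglap had 2 counts in each group. Endothelial markers (1 of 4 higher, 1 lower) summed to 20.9 to 22.0 FPKM in control against 23.8 to 24.2 FPKM in conditioned medium. Of 6 T and NK cell markers 1 was tested and not called, with sums of 0.740 to 1.78 and 0.900 to 1.25 FPKM and Cd3e, Cd3g and Ncr1 at 0. The 3 B cell markers summed to at most 0.120 FPKM in any library. Hepatocyte and hepatoma markers, of which 1 in 5 was tested and not called, summed to 1.31 to 1.47 and 1.39 to 1.54 FPKM, with Krt8 and Hnf4a at 0 and 1 count of Alb in each group.

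Reads of overlapping genes could touch the levels of 3 members, because no source used here says whether strand was used in counting. Ccl6 lies within the gene E230016K23Rik on the opposite strand, whose summed counts were 31 in control and 246 in conditioned medium against 9175 and 149472 for Ccl6. A gene without a symbol lies opposite Ccl3 and had 370 and 670 counts against 1550 and 13395. Gm17268 lies opposite Ccl2 and had 0 counts in all 6 libraries. The overlapping genes thus held far fewer counts than the chemokine genes in conditioned medium. In control medium the gene opposite Ccl3 was less far below it, at 370 counts against 1550. Reads given to neither gene of an overlap would not be seen in these counts.

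Promoter sequences from RefSeq (GRCm38.p6) matched 5 of the 10 members, and the 60 bases before the start of each are shown. Whether any motif in them bears on the levels was not tested. Capitals mark a TATA box (TATAAA) in Ccl12 and Ccl8, an AP-1 motif (TGANTCA) followed by an NF-kB pattern (GGG, 5 bases of any kind, CC, read on the opposite strand) in Ccl9, and an ETS motif (GAGGAA, opposite strand) in Ccl3.
Ccl12 (chr11:82101785-82101844, plus strand): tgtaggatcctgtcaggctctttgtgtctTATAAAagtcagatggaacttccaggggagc
Ccl8 (chr11:82115125-82115184, plus strand): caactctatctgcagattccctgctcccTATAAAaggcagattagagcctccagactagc
Ccl9 (chr11:83578637-83578696, minus strand): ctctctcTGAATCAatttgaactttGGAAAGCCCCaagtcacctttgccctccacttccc
Ccl6 (chr11:83593088-83593147, minus strand): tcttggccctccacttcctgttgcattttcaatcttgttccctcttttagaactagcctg
Ccl3 (chr11:83649379-83649438, minus strand): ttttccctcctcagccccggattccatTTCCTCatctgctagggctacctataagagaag

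In Ccl12 the TATA box began 31 bases before the start and in Ccl8 32 bases before it, a placement that this pair of neighbouring genes shared. Both strands of the 250 bases before each start were searched for 7 motifs, and the same was done for all 32851 promoter windows of the table. The letters TATAAA were found in Ccl12, Ccl8 and Ccl9, and in 12.4% of all windows. In Ccl9 the matches began 224, 94 and 92 bases before the start, further off than in Ccl12 and Ccl8. The ETS motif, which PU.1 of myeloid cells can bind, was found in Ccl12, Ccl8 and Ccl3, and in 23.3% of all windows. Within Ccl9 alone lay the NF-kB pattern, 35 to 26 bases before the start, and the AP-1 motif, which were in 45.8% and 6.75% of all windows. In Ccl9 the TATAAA matches at 94 and 92 bases overlapped each other on the 2 strands, and no motif of different kinds overlapped. Ccl3 held a C/EBP motif (TTNNGNAAT), as did 10.2% of all windows. The STAT (TTCNNNGAA) and interferon response (GAAA, 2 bases of any kind, GAAA) motifs were in no member window and in 7.02% and 2.98% of all windows, and Ccl6 held none of the 7.

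Chemokine transcripts are known for short-lived messages with AU-rich elements, whose core is the pentamer ATTTA, in the 3′ untranslated region. In the GENCODE M21 transcripts 8 members held at least 1 such pentamer, as did 68.6% of 10429 tested genes. Ccl12 had 5 in 167 bases (29.9 per kb), Ccl3 5 in 409 bases (12.2 per kb), Ccl11 7.76 per kb and Ccl4 6.62 per kb, while 4.52% of tested genes had 6 or more per kb. Ccl7 had 4.60, Ccl6 4.24, Ccl2 3.64 and Ccl9 2.03 per kb, against a median of 1.34 over tested genes. Ccl5 and Ccl8 had none. Whether the pentamers bear on the levels or the fold changes was not tested.

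The genes around the second interval were also measured. Within 250 kb of the outermost members, 10 of 31 other genes passed the expression filter. Of these, 5 were called higher and 1 lower by edgeR's quasi-likelihood test, where 23.0% of all tested genes were higher and 22.9% lower. Among the 5 higher, Wfdc21 averaged 0.0367 FPKM in control and passed the filter only through conditioned medium. It could be tested only because it differed. Wfdc17, a whey acidic protein gene of activated macrophages that starts 39.3 kb beyond Ccl4, was at 201, 246 and 214 FPKM in control and at 1690, 1507 and 1567 FPKM in conditioned medium (a log2 fold change of 2.86 ± 0.063, edgeR adjusted p = 5.2e-19). Its fold was within the range of the chemokine genes beside it.

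Wfdc21, of the same protein family, was read once in control medium, in replicate 2, against 405 counts in conditioned medium (ratio 396, 95% counting interval 70.6 to 15700). Without that library no control count remained, and with 3 counts taken as the floor of the remaining 2 together it was at least 87.0-fold higher. Heatr6, a HEAT repeat gene, rose by 0.75 ± 0.057 on the log2 scale (edgeR adjusted p = 5.4e-10). On the Ccl5 side, Mmp28, the matrix metalloproteinase epilysin, fell by 0.33 ± 0.12 (edgeR adjusted p = 0.034), a call lost without control medium replicate 2 or 3 (adjusted p = 0.077 and 0.074) or conditioned medium replicate 2 (adjusted p = 0.14). Rasl10b, a Ras-like gene 105 kb from Ccl5 that was picked after its values were seen, lay below the filter with 35 and 88 counts, and was called higher when the filter was relaxed (1.30 ± 0.38, edgeR adjusted p = 0.0062 with at least 10 counts in 3 libraries). A further called gene, the one without a symbol opposite Ccl3, rose by 0.84 ± 0.11 (edgeR adjusted p = 3.5e-06).

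Around the first interval none of the 6 other genes passed the filter. Of these, Gm31522, a gene model 15.6 kb before Ccl2 that was picked after its values were seen, had 1 count in control medium and 81 in conditioned medium (ratio 79.1, 95% counting interval 13.8 to 3160).

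**Figure D4:**
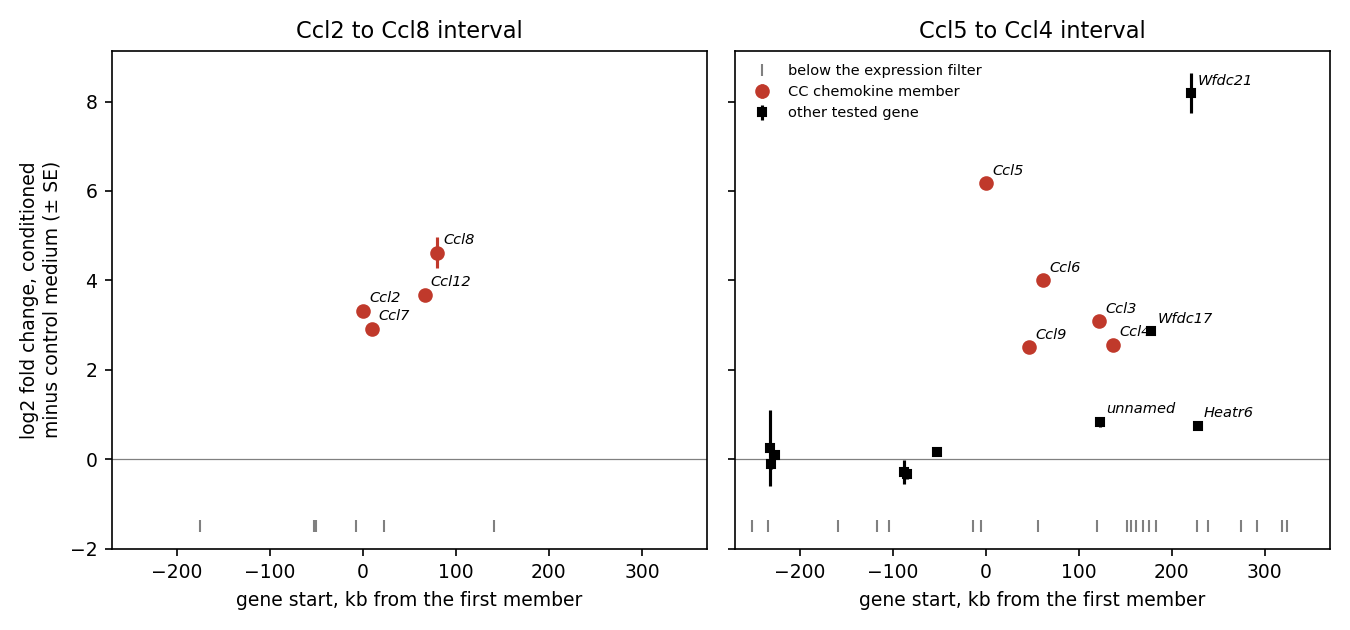
Log2 fold change (± SE) of the members (red circles) and other tested genes (black squares) against the distance of the gene's start from the first member of each interval, with genes below the expression filter as grey ticks. Wfdc17 and Wfdc21 lie beyond Ccl4 at 2.86 and 8.19, and genes before Ccl5 lie between -0.33 and 0.26; 1 long gene below the filter starts further left than the first panel shows.

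Among CC chemokine genes on other chromosomes, all 10 of a list of Ccl17, Ccl19, Ccl20, Ccl21a, Ccl22, Ccl24, Ccl25, Ccl26, Ccl27a and Ccl28 lay below the expression filter. By mean over the 6 libraries the most abundant were Ccl25, a thymus and gut chemokine, and Ccl20, the Ccr6 ligand. Ccl25 was at 0.773 ± 0.0306 FPKM in control medium and 0.810 ± 0.104 in conditioned medium, and Ccl20 at 0.130 ± 0.0854 and 0.633 ± 0.0702. Ccl17, named after its values were seen, was close to Ccl20 by this mean but higher in control medium, at 0.58 ± 0.575 and 0.17 ± 0.294 FPKM. It had 18 and 5 counts and was not called without a filter beyond 1 count (edgeR adjusted p = 0.2). Ccl20 had 11 and 55 counts over the groups, a ratio of 4.88 (95% counting interval 2.53 to 10.3), and it was called when the filter was relaxed (edgeR adjusted p = 6.2e-04 with at least 10 counts in 3 libraries).

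Among the receptors, calls went both ways. Of 14 genes of CC receptors and atypical receptors, 5 passed the filter, and of these 2 were called higher, 2 lower and 1 neither way (median -0.18, against -0.003 over all tested genes). These counts stand beside 23.0% of all tested genes called higher and 22.9% called lower. Ccr1, the receptor shared by Ccl3, Ccl5, Ccl6, Ccl7 and Ccl9, was at 3.06, 2.40 and 2.17 FPKM in control and at 77.9, 78.7 and 82.6 FPKM in conditioned medium (a log2 fold change of 4.99 ± 0.075, edgeR adjusted p = 8.6e-22). Ccr1 was thus higher in every conditioned medium library, as were these ligands.

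Ackr4, an atypical receptor that scavenges CC chemokines of other chromosomes, averaged 7.72 ± 0.841 FPKM in control against 1.99 ± 0.116 in conditioned medium (-1.95 ± 0.089, edgeR adjusted p = 1.2e-13). Ccrl2, a non-signalling relative of the receptors, rose by 0.59 ± 0.17 (edgeR adjusted p = 0.0072), a call lost without conditioned medium replicate 3 (adjusted p = 0.062). Ccr2, the receptor of Ccl2, Ccl7 and Ccl12, named after its values were seen, was below the filter. It had 102 summed counts in control medium against 25 in conditioned medium, and was called lower with at least 10 counts in 3 libraries.

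Of 12 cytokines known to induce CC chemokine genes in various cells, 7 passed the filter, of which 6 were called higher and Il4 was not called (0.23 ± 0.20, edgeR adjusted p = 0.38; median of the 7, 2.04). Of all tested genes 23.0% were called higher, with a median of -0.003. Il1a, Il1b and Il6 passed the filter only through conditioned medium, where they were high, so they could be tested only because they differed. Il1a, which encodes interleukin 1 alpha, averaged 0.863 ± 0.0981 FPKM in control against 66.6 ± 0.356 in conditioned medium (6.28 ± 0.082, edgeR adjusted p = 9.3e-23). Il1b and Il6 rose by 4.26 ± 0.16 and 4.37 ± 0.13, and Osm (oncostatin M) by 2.04 ± 0.14. Ifng, Ifnb1 and Il17a had no count in any library, and 3 counts over a group is the limit that such a 0 allows.

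Of 9 factors of transcript turnover and of its control by glucocorticoids, all tested, 4 were called higher, 2 lower and 3 neither way (median 0.10). Over all tested genes 45.9% were called in either direction. Elavl1 and Nr3c1, named after their values were seen, make up 2 of the 4 higher calls, at 0.14 and 0.13 on the log2 scale, and these calls were lost in 3 and 8 of 14 alternatives (highest edgeR adjusted p 0.081 and 0.25). Zc3h12a, which encodes the RNase Regnase-1, averaged 10.2 ± 0.265 FPKM in control against 28.1 ± 0.852 in conditioned medium (1.48 ± 0.055, edgeR adjusted p = 3.4e-15). Tsc22d3, the glucocorticoid-induced leucine zipper gene, changed by -0.62 ± 0.047, Zfp36l2, a decay factor that binds AU-rich elements, by -0.48 ± 0.044, and the phosphatase gene Dusp1 by 0.46 ± 0.045, all called.

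**Figure D5:**
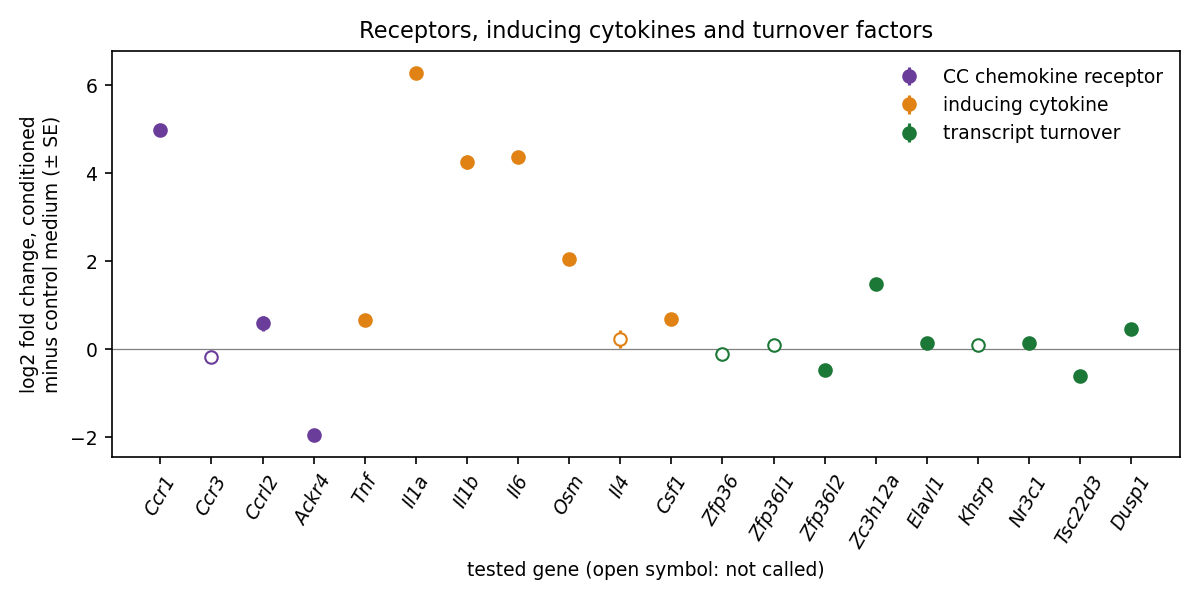
Log2 fold change (± SE, mostly smaller than the symbol) of 4 of the 5 tested receptors and of the tested inducing cytokines and turnover factors, with open symbols for genes that were not called. Ccr1 at 4.99 and Il1a at 6.28 are the highest of their lists, and Ackr4 at -1.95 is the lowest point.

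By Euclidean distance of log2(FPKM + 1) over the 6 libraries, the genes most like Ccl7 were Ldha (lactate dehydrogenase A) at 1.96, Pf4 (platelet factor 4) at 2.04 and Timp1 (a metalloproteinase inhibitor) at 2.05. Those most like Ccl6 were its neighbour Wfdc17 at 2.39, Pf4 at 2.52 and Spp1 (osteopontin) at 3.26. These libraries form 2 groups, so the distance reflects level and fold together, and genes near by it can differ in fold. Ldha was 2.54-fold higher, Timp1 2.63-fold and Pf4 15.5-fold, against 7.59-fold in Ccl7. Spp1 was 4.25-fold higher and Wfdc17 7.28-fold, against 16.1-fold in Ccl6.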

How the data were processed

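RNA of 6 libraries of mouse bone marrow stromal cells was read as paired ends of 150 bases after poly(A) selection, per the labels' protocols. Per the submitters' processing notes, which give neither role nor order, GRCm39, DESeq2, HTSeq 0.6.1, HISAT2 2.0.1 and cutadapt 1.9.1 were used. The authors deposited 1 table of 56691 genes, which holds whole-number read counts and FPKM values per sample, per the file headers. The deposited FPKM equalled count over exonic length and total count within 0.005.

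The members, lists and tests were chosen with earlier results of these data known. Genes that averaged 1 FPKM or more were fitted on the deposited counts with edgeR 4.0.16 in R 4.3.3 (TMM, group only, Benjamini-Hochberg over all tested genes), a procedure also tested on simulated data. SE was taken from the unshrunk log2 fold change divided by √F, which can understate counting error in genes of few counts. Ratios of summed counts were scaled by library totals, with exact intervals. All members and Ccl1 were named. Of each list and of the neighbours with a symbol, up to 4 called genes with the largest change were named, or the 2 most abundant where none was called, and the 3 genes nearest in level to the most abundant member of each interval. Alternatives were DESeq2 1.42.0, limma 3.58.1 on log2(FPKM + 1) or log2(FPKM + 0.1), other scalings and filters, each library left out, and the replicate number as a block. GENCODE M21 gave transcripts and RefSeq gave promoters, and no coordinates were moved between builds. Of the listed genes, 2 are not reported by value here.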

Additional observations from a re-analysis of the deposited data

How the results depend on the processing

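The members were chosen on this contrast, so their calls under the alternatives are not read as a sign of stability. In the tests on counts a member's fold moved by at most 1.18 times, in Ccl8. With limma on log2(FPKM + 1) the log2 fold change was 2.71 in Ccl8 and 4.92 in Ccl5, against 4.62 and 6.17, since the added 1 FPKM is above their control level. With limma on log2(FPKM + 0.1) they were 4.29 and 6.00.

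Other counts moved more. Neighbouring genes called higher were 10 without a filter beyond 1 count and 9 with at least 10 counts in 3 libraries, against 5. More genes are tested with these filters. Over all genes, 3224 of 29132 were called higher in the first, 3203 of 15334 in the second and 2793 of 12153 in the main test. The 1 neighbour called lower, Mmp28, became 0 with DESeq2 and without a filter, where 1 was lower at an unadjusted p under 0.05, and the count was 0 to 1 with a library left out. Of CC chemokines on other chromosomes, 1 was called with either relaxed filter, where more genes are tested. The receptors called higher were 1 to 2 with a library left out. Those called lower were 3 with either relaxed filter and with limma at either pseudocount, against 2. Of turnover factors, 2 were called higher with limma at either pseudocount and 2 to 4 with a library left out, against 4, since Elavl1 and Nr3c1 lay near the threshold; the cause was not tested. Snord7, not called, turned from 0.26 to -0.543 without conditioned medium replicate 3, and was at most 0.56 with another library left out.

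Replicate numbers did not pair the samples: deviations of same-numbered libraries correlated at -0.00416, 0.0395 and 0.0509. With the replicate block 2831 genes were called higher and 2831 lower, against 2793 and 2785, and no count of a list changed. Members with few control counts, Ccl5, Ccl8 and Ccl11, are limited by depth.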
